A study of Gallus gallus with 8 samples.

Results

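Transcript levels in chicken yolk sac endoderm were compared between embryonic day 2 and the pooled embryonic days 3 and 4. All 4 arrays titled day 3 or day 4 formed the late group and both arrays titled day 2 formed the reference, so 6 of the 8 arrays of the series entered the comparison. A gene was taken up where all 4 late arrays lay on one side of both day 2 arrays. Fertilized hens' eggs had been incubated at 38 °C with no other treatment. Yolk sacs were dissected, incubated in dispase for 5 min and parted from the mesoderm, and the remaining endoderm was used for RNA. Each array carried 5 µg of total RNA from 1 of 2 independent samples of a day, and each sample was a pool of tissue gathered at intervals of 4 h over that day. Every value below is therefore an average over pooled tissue and over a whole day of development. Transcripts were measured on the Affymetrix Chicken Genome Array, on which a set of short probes reports each transcript. The 2 day 1 arrays took no part in the tests, and their signals are given for some genes as background.

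The yolk sac endoderm is the epithelium that lies against the yolk. Its cells take up yolk lipid and protein, break them down in lysosomes, and pass nutrients and newly made lipoproteins and serum proteins to the vessels of the overlying mesoderm, a task that the liver shares later. In the same days the mesoderm of the area vasculosa forms blood islands, the source of the primitive red cells, so red cell and vessel transcripts are markers of neighbouring tissue in an endoderm preparation.

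Signals are given as normalized signal in arbitrary units, the deposited intensity after quantile normalization on the log2 scale. Differences are given on the scale of log2(signal + 16), which understates the change of dim genes, and a level of one probe set is not compared with that of another. Summed signals of a list only describe the arrays, and the brightest members of the list weigh most in them. Of 38439 probe sets that were not controls, 23063 had a mean above the cut, a signal of 9.11, and were tested. The cut is low and is no detection call, so dim members remain among them. Those of them with exactly 1 symbol represented 10482 genes. The arrays of a day were not closer to each other than to those of other days throughout. The second day 2 array correlated at 0.95 to 0.967 with the 4 late arrays and at 0.944 with the first day 2 array (Pearson's r over the tested probe sets, as a description). Differences between the day 2 arrays had a median of 0.3 log2 units, against 0.24 on day 3 and 0.3 on day 4. The first array of day 2 and, to a lesser degree, the first of day 3 carried more signal of mesoderm genes than the others. COL3A1, a fibrillar collagen of connective tissue, gave signals of 4647 and 36.3 on day 2, 1457 and 65.3 on day 3, then 62.3 and 37.8 on day 4. The counts of the gene lists were repeated without both of these arrays, a step added after the data were seen. The repeat leaves the second day 2 array as the only one of day 2, so every share from it rests on that array. With so few arrays separation by order alone is common, and each share is to be read beside that of all genes. The repeats are given below for some of the lists only.

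With limma's moderated test and Benjamini-Hochberg adjustment over all tested probe sets, 4 probe sets were higher on days 3 and 4, which is 0.0173% of those tested, and 0 were lower (0%). At an unadjusted p under 0.05 there were 1534 higher and 1563 lower probe sets. The 4 belonged to APOV1, ITIH2, CCNG2 and LOC769668. The pattern without overlap was far more common. All 4 late arrays lay above both day 2 arrays in 2861 probe sets (12.4%) and below both in 2544 (11.0%), together 5405 (23.4%). With each gene represented by its brightest probe set, 1243 genes lay above (11.9%) and 1447 below (13.8%), which makes 2690 in either direction (25.7%), and 3 genes passed the adjusted test (0.0286%). With 2 arrays set against 4, a part of these separations arises from the chance order of arrays without any change. That part was not estimated, so the counts are not numbers of changed genes. Most of these separations were narrow. Among probe sets that lay above, the median log2 difference was 0.50, and the nearest late and day 2 arrays were over 0.5 log2 units apart in 173 and over 1 in 23. Among those below, the median was -0.52, with 194 gaps over 0.5 and 14 over 1. Except for the 4 probe sets named above, the genes described here did not pass the adjusted test, and their values are given as such.

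Of the 4 called probe sets, that of APOV1 had the largest log2 difference. APOV1 encodes apovitellenin 1, a small apolipoprotein of the very low density lipoprotein that laying hens deposit in yolk. APOV1 signals were 40.5 and 36.5 on day 2, 193 and 281 on day 3, then 217 and 251 on day 4. All late arrays were several times above both day 2 arrays, and day 1 had been lower still, at 4.92 and 6.47. The mean rose from 38.49 ± 2.88 (SD, n = 2) to 235.5 ± 38.17 (SD, n = 4), a ratio of 6.12, with a log2 difference of 2.20 ± 0.22 (SE) and an adjusted p of 0.035 by limma. ITIH2 encodes a heavy chain of the inter-alpha-trypsin inhibitor, a plasma protein that binds hyaluronan. Its signals were 601 and 921 on day 2, 3328 and 3359 on day 3, then 3802 and 2701 on day 4. All late arrays stood far above both day 2 arrays, and the mean rose from 760.8 ± 226.7 (SD, n = 2) to 3297 ± 452.8 (SD, n = 4), by 2.11 ± 0.21 log2 units (adjusted p = 0.035, limma).

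CCNG2 encodes cyclin G2, an unconventional cyclin that is linked in mammalian cells to cell cycle arrest. One of its probe sets gave 832 and 790.3 on day 2, 2264 and 2397 on day 3, then 2239 and 2491 on day 4. The late arrays were tightly grouped there, and the rise of 1.51 ± 0.13 log2 units had an adjusted p of 0.028 (limma). The brighter CCNG2 probe set gave 1877 and 2593, then 2174 and 3244, then 3559 and 3607 on the same days. In that one the day 3 arrays overlapped with day 2, the log2 difference was 0.48 ± 0.23 and the adjusted p was 0.41, so the probe sets of this gene disagree on day 3. LOC769668, which carries no descriptive name in the annotation, gave 322 and 287 on day 2, 1216 and 1291 on day 3, then 1205 and 1114 on day 4, a rise of 1.93 ± 0.16 (adjusted p = 0.028, limma). The number of calls depended on single arrays: without any one of the day 2 or day 3 arrays there were 0 calls, without the first day 4 array 0 higher and 1 lower, and without the second day 4 array there were 25 higher and 15 lower probe sets.

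**Figure D1:**
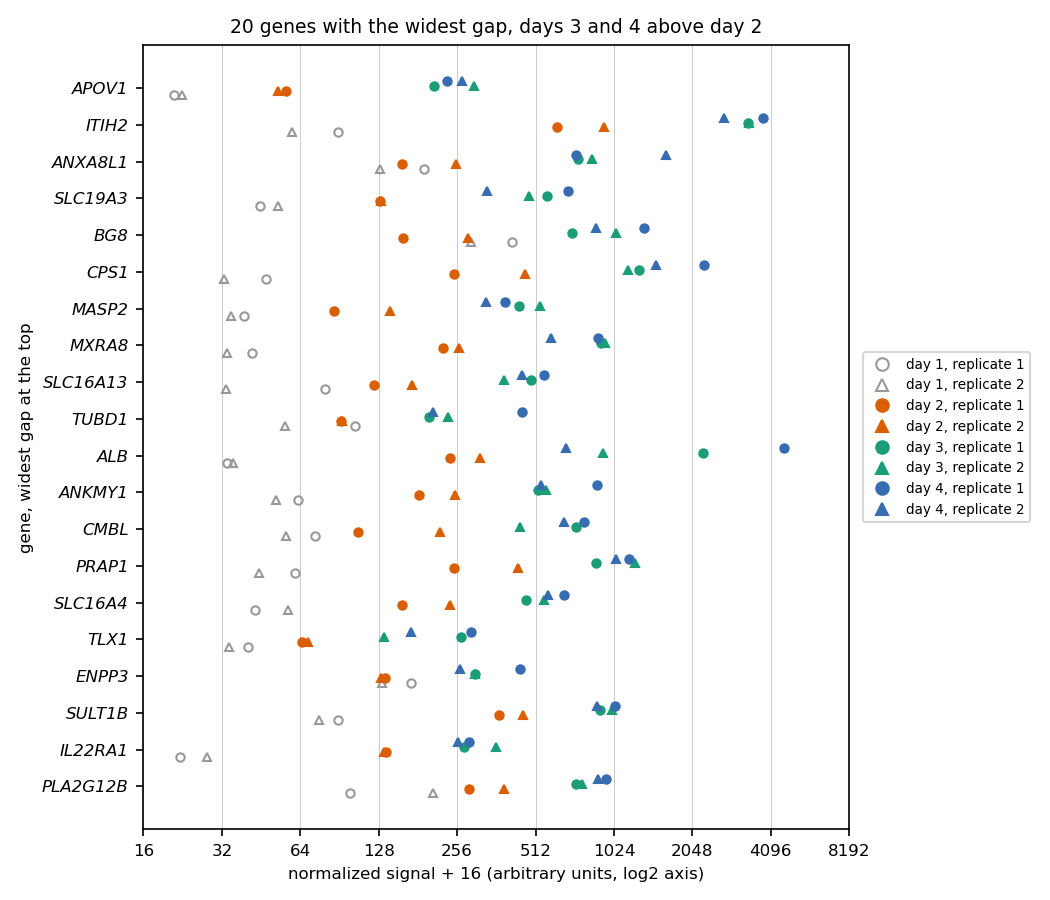
Normalized signal plus 16 (arbitrary units, log2 axis) of the 20 genes with the widest gap between day 2 and the late arrays, late arrays higher, one symbol per array, coloured by day and shaped by replicate. Genes were ranked by their brightest probe set, and placeholder symbols such as LOC numbers were left out. LOC769668 (gap 1.742 log2 units) and the called CCNG2 probe set (1.41) are therefore not shown. In every row all day 3 and day 4 symbols lie right of both day 2 symbols. The widest gap is that of APOV1, whose lowest late signal was 193 and highest day 2 signal 40.5.

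Genes of secreted serum proteins were among those that lay higher on the late days. Of 29 tested, 9 lay above on all late arrays (31%), 1 lay below and 19 overlapped, with a median log2 difference of 0.41. The share above among all genes was 11.9% and the median of all genes -0.01. ITIH2 was the member that passed the test. ALB, the albumin gene, gave 224 and 298 on day 2, 2231 and 909.7 on day 3, then 4595 and 656 on day 4. Every late array was higher than day 2, but they were spread widely, with the first array of each late day well above the second, and the log2 difference of 2.54 ± 0.68 had an adjusted p of 0.25. AFP, the fetal albumin relative alpha-fetoprotein, gave 3595 and 3895 on day 2, 9898 and 9979 on day 3, then 10573 and 6537 on day 4 after 6.71 and 2.10 on day 1. Its late arrays did not overlap with day 2 and 3 of them were near the top of the array's range, where differences are compressed (log2 difference 1.28 ± 0.19, adjusted p = 0.15). VTN, encoding the adhesive plasma protein vitronectin, gave 1658 and 2491 on day 2, 3607 and 2984 on day 3, then 3607 and 3006 on day 4. AMBP, whose product is cut into alpha-1-microglobulin and the light chain bikunin that pairs with the ITIH2 heavy chain, gave 997 and 1266 on day 2, 2195 and 2540.0 on day 3, then 3629.8 and 1363 on day 4. In both genes the late arrays were higher without overlap, while the second day 4 array of AMBP came close to day 2. PIT54, a scavenger receptor family protein that binds hemoglobin in chicken plasma, was the member that lay lower, with 28.0 and 47.5 on day 2, 1.58 and 15.1 on day 3, then 1.48 and 4.88 on day 4, all near the dim end.

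The coagulation and complement genes had 7 of 22 members above (31.8%, against 11.9% of all genes), 1 below and 14 overlapping. Their median was 0.51 and 0 passed the test. MASP2, a serine protease that starts the lectin pathway of complement, gave 70.5 and 125 on day 2, 424 and 514 on day 3, then 376 and 314 on day 4. The late arrays were grouped well above both day 2 arrays, and the log2 difference was 1.92 ± 0.27 (adjusted p = 0.15). F2, the gene of prothrombin, gave 581 and 778 on day 2, 1896 and 2264 on day 3, then 2093 and 1102 on day 4. F5, the cofactor that speeds thrombin formation, gave 297 and 441 on day 2, 807 and 728 on day 3, then 840.4 and 606 on day 4. The arrays were separated in both, with the second day 4 array the lowest of the late group in each. C1S, a protease of the classical complement pathway, gave 44.7 and 81.8 on day 2, 156 and 262 on day 3, then 199.8 and 125 on day 4. PLG, the plasminogen gene, gave 1754 and 1807 on day 2, 2923 and 3081 on day 3, then 4166 and 2272 on day 4, and C8B, a subunit of the membrane attack complex, was the member below, with 46.2 and 47.9 on day 2, 40.1 and 22.7 on day 3, then 31.0 and 10.9 on day 4.

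Among apolipoprotein and lipoprotein assembly genes, 5 of 21 lay above (23.8%, against 11.9% of all genes), 1 below and 15 overlapped. The median was 0.58, and APOV1 passed the test. APOA4, an exchangeable apolipoprotein of gut and yolk sac lipoproteins, gave 3324 and 3201 on day 2, 5538 and 5151 on day 3, then 7315 and 5117 on day 4. APOA5, which promotes the clearance of triglyceride in mammals, gave 1848 and 2428 on day 2, 3818 and 3718 on day 3, then 3860.4 and 3033 on day 4. Both were higher on all late arrays, at log2 differences of 0.81 ± 0.16 and 0.76 ± 0.16 (adjusted p = 0.23 and 0.24). PLTP, a phospholipid transfer protein, gave 1904 and 2517 on day 2, 4271 and 4576 on day 3, then 5157 and 2907 on day 4, and LCAT, which esterifies cholesterol on lipoprotein particles, gave 1968 and 3581 on day 2, 4756 and 4846 on day 3, then 4964 and 3969 on day 4; LCAT was also counted among the serum proteins. LIPG, an endothelial lipase, lay below, with 62.0 and 30.4 on day 2, 10.4 and 12.2 on day 3, then 20.01 and 15.9 on day 4. APOB, the structural protein of very low density lipoprotein, was near the top of the array's range on every array, at 9979 and 9848 on day 2, 9979 and 9898 on day 3, then 9742 and 9181 on day 4, a level at which differences are compressed. Outside this list, PLA2G12B, which mice need to export triglyceride-rich lipoprotein from the liver, gave 269 and 372 on day 2, 717 and 757 on day 3, then 935 and 874 on day 4 (log2 difference 1.32 ± 0.20, adjusted p = 0.15).

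Enzymes of amino acid breakdown and the urea cycle had 10 of 32 members above (31.2%, against 11.9% of all genes). Another 2 lay below and 20 overlapped, with a median of 0.31 and 0 passing. CPS1, the mitochondrial enzyme that makes carbamoyl phosphate from ammonia, gave 234 and 451 on day 2, 1261 and 1139 on day 3, then 2246 and 1470.5 on day 4 after 31.2 and 16.7 on day 1. No late array came near the higher day 2 array, and the log2 difference was 2.13 ± 0.33 (adjusted p = 0.15). ASS1, the next but one step of the cycle, gave 3691 and 4064 on day 2, 7235 and 6092 on day 3, then 7206 and 5272 on day 4. HPD, an enzyme of tyrosine breakdown, gave 1069 and 1269 on day 2, 2089 and 1865 on day 3, then 2617 and 2254 on day 4. HGD, a later enzyme of the same route, gave 319 and 489 on day 2, 953 and 1126 on day 3, then 1089.9 and 788 on day 4. In the methyl group and sarcosine steps, GNMT gave 449 and 755 on day 2, 1178 and 1395 on day 3, then 1291 and 999 on day 4, and SARDH gave 135 and 205 on day 2, 829 and 616 on day 3, then 572 and 264 on day 4. The second day 4 array was the lowest late array in HGD, GNMT, SARDH and ASS1, yet still above day 2. GOT1, the cytosolic aspartate aminotransferase, lay below, with 2203 and 2188 on day 2, 1624 and 1588 on day 3, then 1631 and 1327 on day 4.

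Other genes with wide gaps on the high side had varied roles. ANXA8L1, an annexin that binds membrane phospholipid in the presence of calcium, gave 141 and 237 on day 2, 729.8 and 824 on day 3, then 714 and 1606 on day 4. SLC19A3, a thiamine transporter, gave 114 and 115 on day 2, 552 and 469 on day 3, then 668 and 316 on day 4. The late arrays of both were clear of the higher day 2 array, and neither passed the test (adjusted p = 0.17 and 0.15). The monocarboxylate transporter family was represented by SLC16A13, with 107 and 156 on day 2, 477 and 370.2 on day 3, then 536 and 439 on day 4. SLC16A4 of the same family gave 141 and 224 on day 2, 454 and 535 on day 3, then 642 and 556 on day 4. MXRA8, a cell surface adhesion protein, gave 210.0 and 244 on day 2 and 572 to 928 later. PRAP1, a secreted protein of gut epithelium in mammals, gave 233 and 422 and 858 to 1220.4, and ENPP3, a surface enzyme that cleaves nucleotides, gave 119.5 and 115 and 246 to 432. IL22RA1, a cytokine receptor subunit of epithelia, gave 120.3 and 119 on day 2 and 243 to 345 later, and TLX1, a homeobox gene, gave 49.2 and 52.5 and 118 to 274. BG8, of the B-G family of the chicken major histocompatibility complex, gave 143 and 266 on day 2, 690.4 and 1028 on day 3, then 1321 and 859 on day 4. B-G genes are closely alike in sequence, so its probe sets could also read its relatives.

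Detoxification and redox genes were split, with 11 of 54 above (20.4%) and 9 below (16.7%), against 11.9% and 13.8% of all genes. CYP4V2, a fatty acid hydroxylase of the cytochrome P450 family, gave 147 and 216 on day 2, 403 and 405 on day 3, then 733 and 524 on day 4. CYP2C18 of the same superfamily gave 1596 and 1904 on day 2, 2918 and 3258 on day 3, then 3265 and 3421 on day 4, a log2 difference of 0.88 ± 0.14 (adjusted p = 0.15). SULT1B1, a sulfotransferase, gave 103 and 118 on day 2, 206 and 478 on day 3, then 384 and 381 on day 4. These were higher on all late arrays. On the other side, PRDX1, a peroxide-reducing enzyme, gave 5157 and 3408 on day 2, 2523 and 1935 on day 3, then 1882 and 2704 on day 4. MT3, a metallothionein that binds zinc and copper, gave 8678 and 7571 on day 2, 4535 and 5518 on day 3, then 5170.0 and 3880.4 on day 4, also without overlap. Without the first arrays of days 2 and 3, 14 lay above (25.9%) and 19 below (35.2%), against 24.5% and 28.6% of all genes.

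Genes of DNA replication and mitosis were often lower on the late days. Of 79 members tested, 43 lay below on all late arrays (54.4%, against 13.8% of all genes), 1 lay above and 35 overlapped, and the median log2 difference was -1.05; 0 passed the adjusted test. CCND1, the cyclin D1 that drives entry into S phase, gave 331 and 313 on day 2, 119.7 and 118 on day 3, then 115 and 141 on day 4. The late arrays were tightly grouped below day 2, and the log2 difference was -1.28 ± 0.19 (adjusted p = 0.15). TPX2, a spindle assembly factor, gave 823 and 759 on day 2, 296 and 242 on day 3, then 69.4 and 302 on day 4. NUF2, of the kinetochore that holds chromosomes to the spindle, gave 320.2 and 264 on day 2, 138 and 90.3 on day 3, then 79.1 and 41.6 on day 4. Among the kinases, AURKB gave 1288 and 641 on day 2, 295 and 135 on day 3, then 77.5 and 373 on day 4, and CDK1 gave 1047 and 1088 on day 2, 347 and 349.6 on day 3, then 175 and 823 on day 4. The second day 4 array was the highest late array in TPX2, AURKB and CDK1, and the first day 4 array the lowest. RRM2, the regulated subunit that makes deoxynucleotides, showed the same order, with 1344 and 1546 on day 2, 289.9 and 187 on day 3, then 117 and 1137 on day 4. Summed over the list, signal was 30023 and 23664 on day 2, 13788 and 11353 on day 3, then 10148 and 20431 on day 4, so 1 day 4 array came near day 2. Without the first arrays of days 2 and 3, 52 of the 79 lay below (65.8%, against 28.6% of all genes) and 6 above. SPC25, a kinetochore gene, was the member above, with 46.7 and 43.2 on day 2, 178 and 56.3 on day 3, then 148 and 46.9 on day 4, a gap too small to tell from a tie.

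Further genes with wide gaps below lay outside the list or beside it. CKS2, a small partner of cyclin-dependent kinases, gave 499 and 281 on day 2, 142 and 74.2 on day 3, then 61.5 and 90.7 on day 4. KPNA2, an importin that carries proteins into the nucleus, gave 1802 and 736 on day 2, 404 and 191 on day 3, then 110.4 and 356 on day 4. NPM3, of the nucleoplasmin family of histone chaperones, gave 1049.7 and 912 on day 2, 348 and 259.5 on day 3, then 188 and 442 on day 4 after 3691 and 2601 on day 1. Each was lower on all late arrays, and in CKS2, KPNA2 and NPM3 the first arrays of days 2 and 3 were the higher of their day. UCK2, which phosphorylates uridine and cytidine, gave 67.3 and 72.9 on day 2 and 15.8 to 30.1 later, and SNRPA1, a protein of the U2 spliceosome particle, gave 602 and 448 and 190.1 to 242. The adjusted p of these 5 genes was 0.19 to 0.25.

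**Figure D2:**
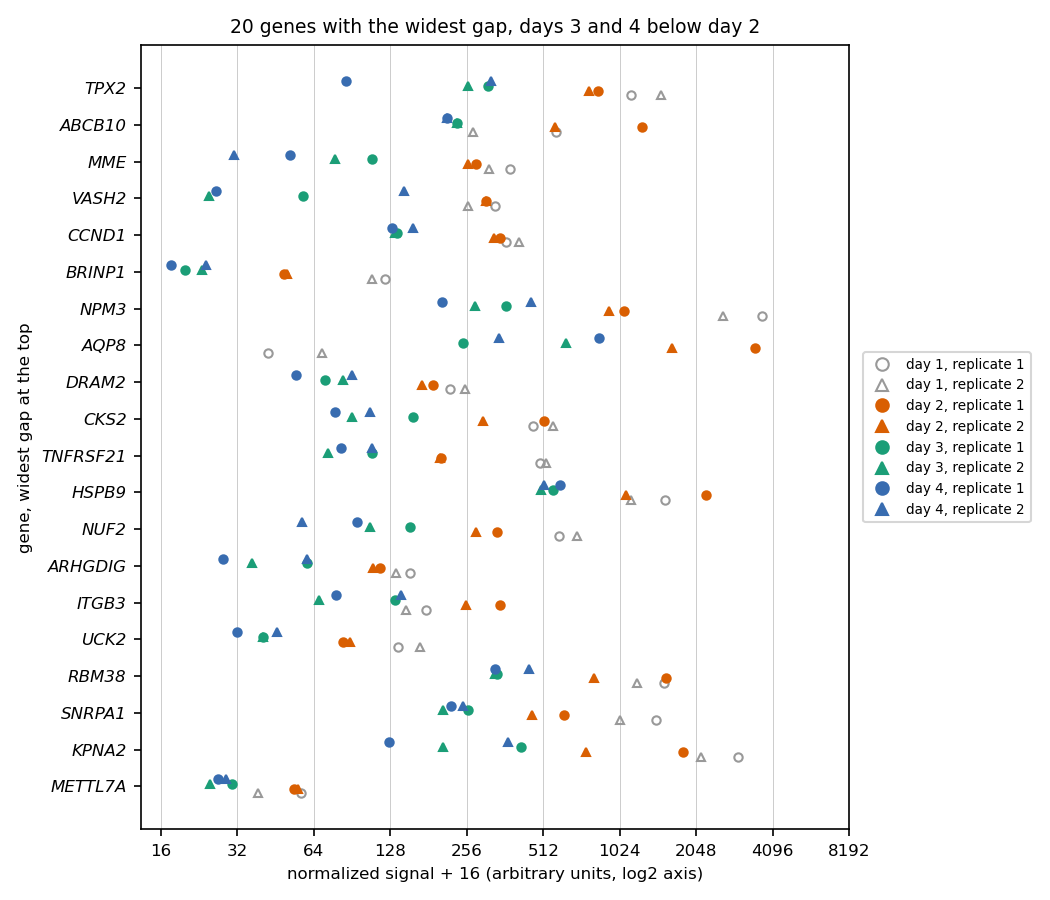
Normalized signal plus 16 (arbitrary units, log2 axis) of the 20 genes with the widest gap, late arrays lower, one symbol per array, coloured by day and shaped by replicate. Genes were ranked by their brightest probe set, and placeholder symbols such as LOC numbers were left out. In every row all day 3 and day 4 symbols lie left of both day 2 symbols. The widest gap is that of TPX2, with 759 as the lower day 2 signal and 302 as the highest late signal.

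Several membrane and signalling genes shared the wide gaps on the low side. MME, a surface peptidase also named neprilysin, gave 263 and 244 on day 2, 92.5 and 61.7 on day 3, then 35.8 and 15.1 on day 4. Its signal was lower on day 4 than on day 3 on every array, and the log2 difference from day 2 was -2.15 ± 0.45 (adjusted p = 0.23). VASH2, which trims tubulin and promotes vessel growth in mice, gave 289 and 289 on day 2, 42.1 and 8.76 on day 3, then 10.5 and 129 on day 4. AQP8, a water channel, gave 3463 and 1635 on day 2, 232 and 612 on day 3, then 829 and 327 on day 4, after 26.4 and 53.3 on day 1. Of the 4 days its signal was highest on day 2, though its late arrays were widely spread. ITGB3, the integrin beta 3 subunit, gave 329.9 and 239 on day 2, 118 and 51.3 on day 3, then 62.3 and 125 on day 4, TNFRSF21, a death domain receptor, gave 187 and 185 on day 2 and 56.9 to 92.8 later, and DKK3, a secreted Dickkopf family protein, gave 796 and 643 on day 2, 365 and 392 on day 3, then 85.0 and 149 on day 4. The secreted vascular regulators and growth factors to which DKK3 belongs had 6 of 55 above (10.9%) and 3 below (5.45%), both under the share of all genes. SHH, the hedgehog ligand, was among those above, with 25.8 and 21.5 on day 2, 59.5 and 48.2 on day 3, then 66.1 and 58.3 on day 4.

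Primitive erythroid markers belong to the blood of the neighbouring mesoderm. Of 18 members, 11 lay below (61.1%, against 13.8% of all genes), 0 above and 7 overlapped. Their median was -0.83 and 0 passed the test. CA2, the carbonic anhydrase of red cells, gave 1950.0 and 146 on day 2, 95.9 and 42.4 on day 3, then 38.8 and 31.2 on day 4. SLC4A1, an exchanger of chloride and bicarbonate in red cell membranes, gave 909.7 and 263 on day 2, 153 and 174 on day 3, then 127 and 77.8 on day 4. Of the 6 compared arrays both were highest on the first of day 2, which also carried the most mesoderm signal. On day 1 CA2 had been at 5170.0 and 2488 and SLC4A1 at 10.4 and 1.80. CA2 was thus highest on day 1, before the rise of SLC4A1, and did not follow that gene across the days. TAL1, a transcription factor of blood formation, gave 144 and 49.7 on day 2, 34.9 and 24.5 on day 3, then 19.4 and 4.55 on day 4. The embryonic alpha globin HBZ gave 11329.6 and 8364 on day 2, 8078 and 7002 on day 3, then 5202 and 3022 on day 4, and the day 4 arrays were the lowest of the 6. Its signal on the first day 2 array was near the top of the array's range, where differences are compressed. The summed signal of the list was 56692 and 41126 on day 2, 38176 and 32251 on day 3, then 27161 and 17726 on day 4. Without the first arrays of day 2 and day 3 the count was 14 of 18 below (77.8%), against 28.6% of all genes then. Outside the list, ABCB10, a mitochondrial transporter that red cell precursors of mice need to make heme, gave 1235 and 553 on day 2, 219.5 and 219 on day 3, then 198 and 198 on day 4, and RBM38, an RNA-binding protein, gave 1539 and 797 on day 2, 321 and 314 on day 3, then 316 and 435 on day 4. In tissue RNA, fewer cells of a type and less RNA per cell cannot be told apart, and the part of blood cells in any other difference described here was not tested.

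Genes of oxidative phosphorylation and the citrate cycle had a median just below that of all genes. Of 57 members, 24 lay below (42.1%, against 13.8% of all genes), 3 above and 30 overlapped. The median was -0.18 and 0 passed. CYCS, the gene of cytochrome c, had the widest gap of them, with 3414 and 2402 on day 2, 1678 and 1418 on day 3, then 1183 and 1573 on day 4 (log2 difference -0.97 ± 0.20, adjusted p = 0.23). SUCLA2, a subunit of a citrate cycle ligase, had a log2 difference as large but a narrower gap, with 169 and 83.2 on day 2, 58.0 and 49.7 on day 3, then 35.0 and 74.7 on day 4. NDUFA8, a subunit of complex I, gave 1677 and 1401 on day 2, 971 and 971 on day 3, then 1122 and 1214 on day 4. Endoplasmic reticulum genes of folding, translocation and export had 22 of 68 below (32.4%, against 13.8% of all genes). Another 3 lay above and 43 overlapped, with a median of -0.16. SEC61G, a subunit of the translocation channel, gave 4119 and 4271 on day 2, 3107 and 3121 on day 3, then 2529 and 2378 on day 4. HSP90B1, a folding chaperone of the same compartment, gave 5066 and 6128 on day 2, 4041 and 4083 on day 3, then 3371 and 3552 on day 4. In both genes day 4 was lower than day 3, and the log2 differences from day 2 were -0.60 ± 0.15 and -0.57 ± 0.14 (adjusted p = 0.25 and 0.25). Without the first arrays of day 2 and day 3, 39 of the 57 and 40 of the 68 lay below (68.4% and 58.8%, against 28.6% of all genes).

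**Figure D3:**
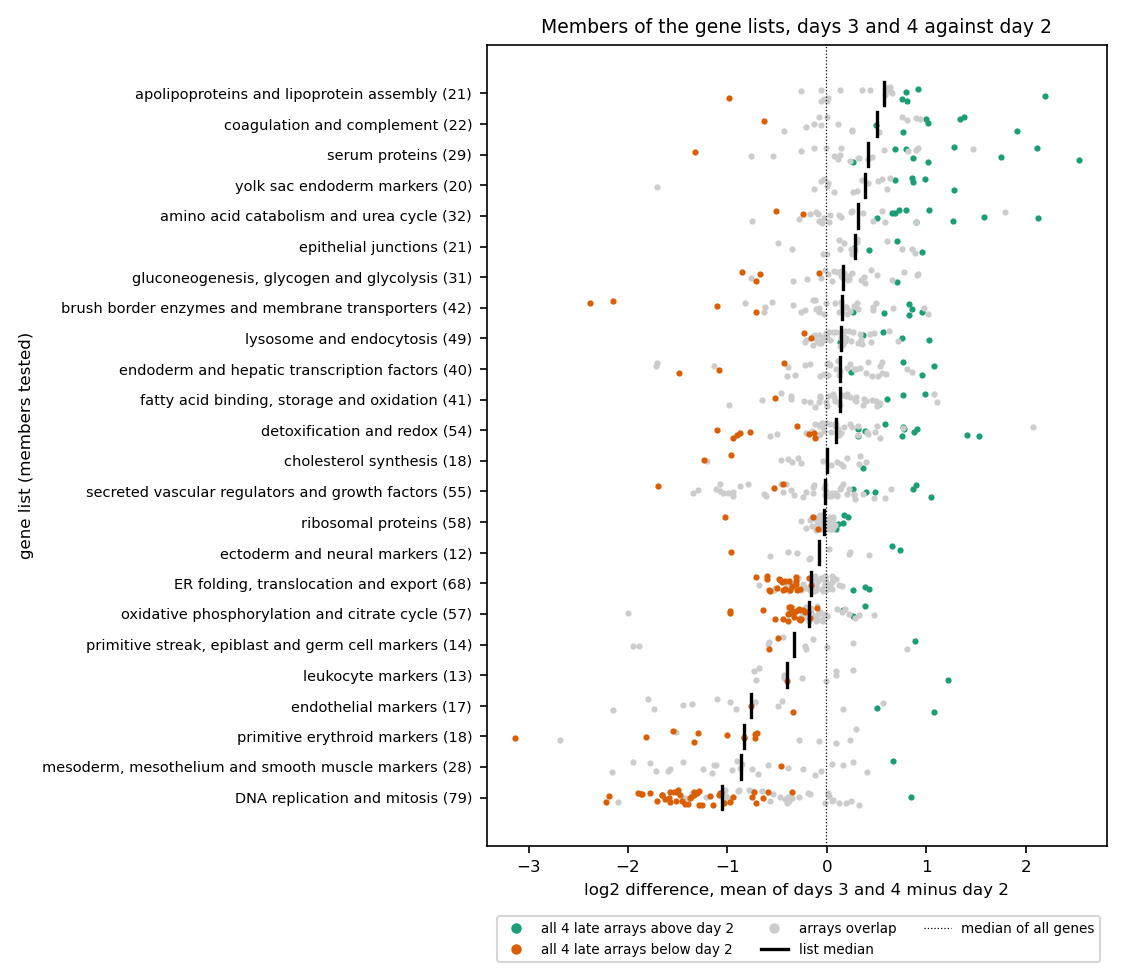
Log2 difference (mean of days 3 and 4 minus day 2) of each tested member of the 24 gene lists, with the number tested in brackets, points coloured by whether the late arrays lay above, below or overlapped with day 2. Black bars are list medians and the dotted line is the median of all genes, -0.01. The lowest medians are -1.05 for DNA replication and mitosis and -0.86 for mesoderm markers.

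The other pathway lists had shares above and below that were near those of all genes (11.9% and 13.8%) or under them. The exception was 19% above among epithelial junction genes. Fatty acid binding, storage and oxidation genes had 4 of 41 above and 1 below. FABP7, a fatty acid binding protein, was one of the clearest, with 2874 and 3104 on day 2, 5824 and 5077 on day 3, then 6883 and 6128 on day 4 (log2 difference 0.99 ± 0.14, adjusted p = 0.15), and CPT1A, which brings fatty acids into mitochondria, gave 279 and 362 on day 2, 653 and 533 on day 3, then 413 and 408 on day 4. Cholesterol synthesis genes had 1 of 18 above and 2 below, the latter being FDPS with 309 and 142 on day 2, 91.9 and 63.7 on day 3, then 59.0 and 115 on day 4 and HMGCS1 with 299 and 215 on day 2, 119 and 103 on day 3, then 149 and 122 on day 4, enzymes of the mevalonate pathway. Gluconeogenesis, glycogen and glycolysis genes had 1 of 31 above and 4 below. The member above was GYS2, a glycogen synthase, with 95.9 and 108 on day 2, 151 and 200.4 on day 3, then 207 and 153 on day 4, and among those below were the glycolytic enzymes HK2 with 78.8 and 49.6 on day 2, 33.3 and 19.5 on day 3, then 32.1 and 26.9 on day 4 and ALDOC with 1591 and 1641 on day 2, 988 and 1019 on day 3, then 808 and 1283 on day 4.

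Lysosome and endocytosis genes had 5 of 49 above and 2 below. HEXA, a lysosomal hexosaminidase, gave 135 and 210.0 on day 2, 293 and 347 on day 3, then 481 and 348 on day 4, and CD63, a membrane protein of late endosomes, gave 1145 and 1580.0 on day 2, 2859 and 2347 on day 3, then 1935 and 2089 on day 4. Brush border enzymes and membrane transporters had 6 of 42 above and 4 below, and SLC5A11, a sodium-coupled inositol transporter, was below with 148 and 199 on day 2, 64.2 and 106 on day 3, then 52.9 and 69.5 on day 4. MME and AQP8 are members of this list as well. Epithelial junction genes had 4 of 21 above and 0 below. On the values as deposited 1 was above, with 751 of all 10482 genes above then. Without the first arrays of days 2 and 3, 7 were above (33.3%, against 24.5% of all genes) and 2 below. OCLN, the tight junction protein occludin, gave 147 and 229 on day 2, 346 and 354 on day 3, then 255 and 292 on day 4. Endoderm and hepatic transcription factors had 4 of 40 above and 3 below. The nuclear receptor ESRRG gave 92.8 and 146 on day 2, 250.1 and 252 on day 3, then 359.7 and 212 on day 4, and RXRG, a retinoid X receptor, gave 105 and 189 on day 2, 228 and 289 on day 3, then 355 and 301 on day 4. KLF15, a zinc finger factor of fasting metabolism in mice, was below, with 182 and 178 on day 2, 144 and 53.4 on day 3, then 69.3 and 60.4 on day 4. Ribosomal protein genes had 5 of 58 above and 3 below with a median of -0.03. Many of them were bright, and RPS20 was at 12090 on every array, the top of the range. Differences are compressed at such levels, so the median does not show that these genes did not change.

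Markers of other tissues were measured beside these groups, and of all genes 11.9% lay above and 13.8% below. The 28 tested mesoderm, mesothelium and smooth muscle markers had 1 above and 1 below (3.57% each) and 26 overlapping. Their summed signals were 26057 and 4860 on day 2, 12597 and 3748 on day 3, then 4156 and 5192 on day 4. The first arrays of days 2 and 3 stood apart. Leaving them out gave 7 above (25%) and 8 below (28.6%), near the 24.5% and 28.6% of all genes. VIM, the gene of the filament protein vimentin, gave 1702 and 328 on day 2, 512 and 306 on day 3, then 310.4 and 274 on day 4. Endothelial markers had 2 of 17 above and 2 below (11.8% each), with sums of 4433 and 1708, 2560 and 1657, and 1927 and 1497 on the 3 days in turn. Without the first arrays of days 2 and 3, 5 lay above (29.4%) and 7 below (41.2%), against 24.5% and 28.6% of all genes. CDH5, the cadherin of vessel walls, gave 1084 and 9.18 on day 2, 221 and 3.88 on day 3, then 9.51 and 0.45 on day 4, near 0 on the second arrays of days 2 and 3 and on both of day 4, after 880.4 and 306 on day 1. Leukocyte markers had 1 of 13 above and 1 below (7.69% each), with sums of 432 to 654. Ectoderm and neural markers had 2 of 12 above (16.7%) and 1 below (8.33%), with sums of 279 to 434. Markers of primitive streak, epiblast and germ cells had 1 of 14 above (7.14%) and 2 below (14.3%), with sums of 914 to 1961. Without the first arrays of days 2 and 3, 2 of these 14 lay above (14.3%) and 9 below (64.3%, against 28.6% of all genes). Most of those below were dim on the second day 2 array, the only one of that day left. SNAI2 was at 8.55 there, CFC1 at 20.59 and MIXL1 at 20.94, while LIN28B was brighter, at 125.13. At such levels the order of arrays carries little weight, so this share does not show a fall of these markers. Yolk sac endoderm markers had 5 of 20 above (25%, against 11.9% of all genes) and 0 below. Without the first arrays of days 2 and 3, 5 lay above (25%), near the 24.5% of all genes, and 2 below (10%). AFP, SERPINF1 and VTN were also counted among the serum proteins, and FABP7 among the fatty acid genes. The sums of the endoderm markers were 60959 and 71338 on day 2, 78795 and 77406 on day 3, then 85752 and 78790 on day 4. On day 2 the members with most weight in them were TTR, APOA1, APOB and TF, which were near the top of the array's range. Some members were dim, such as GATA4, an endoderm transcription factor, at 17.3 and 22.2 on day 2, 18.0 and 22.9 on day 3, then 18.3 and 20.4 on day 4, and SLC40A1, an iron exporter, at 33.4 and 27.4 on day 2, 80.7 and 60.5 on day 3, then 78.1 and 54.1 on day 4. The part of mesoderm carry-over in the differences described here was not tested. Without the first arrays of days 2 and 3, 24.5% of all genes lay above and 28.6% below. Of the serum protein genes 11 of 29 then lay above (37.9%), and of the coagulation and complement genes 7 of 22 (31.8%). Of the amino acid genes 13 of 32 lay above (40.6%). The apolipoprotein genes had 6 of 21 above (28.6%), near the share of all genes, and 3 below (14.3%). Those below were 2 serum protein genes (6.9%), 2 coagulation and complement genes (9.09%) and 4 amino acid genes (12.5%).

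**Figure D4:**
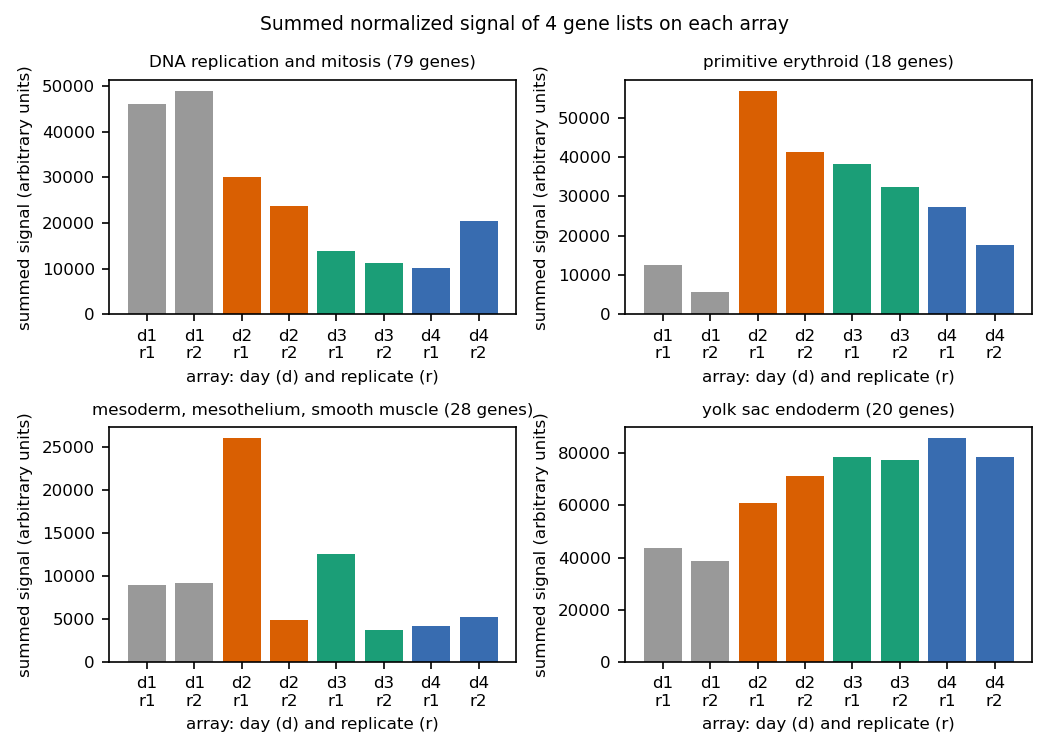
Summed normalized signal (arbitrary units) of 4 gene lists on each of the 8 arrays, labelled by day (d) and replicate (r), with bars starting at 0. The brightest members of a list weigh most in its sum. The DNA replication and mitosis sums go from 30023 and 23664 on day 2 to 10148 and 20431 on day 4, and mesoderm markers stand high on the first arrays of day 2 (26057) and day 3 (12597).

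Days 3 and 4 were pooled, and the same test was run between them. Day 4 against day 3 gave 0 called probe sets (0%), with 563 higher and 665 lower at an unadjusted p under 0.05 by limma and a smallest adjusted p of 0.62. With day 2 against each late day alone there were 0 calls as well, so the calls above came from the pooled group of 4. Within the late group the second day 4 array often lay nearest to day 2, as in ALB, AFP, F2, SARDH, CDK1, AURKB and RRM2. This did not hold for all cell cycle genes, and in NUF2 that array was the farthest from day 2, at 41.6.

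At the limit of what counts as separated, PPARA, a nuclear receptor of fatty acid breakdown, lay just inside, with 199 and 441 on day 2 and 442 as the lowest late signal. SLC3A1, a subunit of an amino acid transporter, lay just outside, with 964 and 1427 on day 2 and 1422 as the lowest late signal. How many genes lay on each side also depended on the scaling between arrays. Quantile normalization gave 52.9% of the separated probe sets above day 2, the deposited values 34.9% and a shift to a common median 35.5%. The median log2 difference of all probe sets was 0.026, -0.077 and -0.059 under these 3 scalings. Of the 135 genes and probe sets singled out by the naming rules, 120 were separated and 111 of these also on the deposited values. Among the separated ones, 49 had several probe sets kept, and in 23 of these all probe sets were separated in the same direction. Of the genes described above as separated, CPS1, CPT1A, ESRRG, F5, GNMT, HSP90B1, ITGB3, MASP2, NUF2, PPARA, RBM38, SARDH, SLC5A11, SNRPA1 and TAL1 had at least 1 probe set that was not. In F5, GNMT, PPARA and SNRPA1 this was so for 2 of the 3 probe sets, and in SARDH for 3 of 5.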

How the data were processed

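The signal intensity of each probe set was the value the authors deposited; it was made with MAS5, per the submitters' processing notes, but no version or scaling target is given in the sources used here. Trimmed means of the 6 arrays as deposited ran from 76.3 on the first day 4 array to 106 on the first day 2 array. Actin 3'/5' ratios ran from 1.744 on the first day 2 array to 4.3 on the first day 4 array. The second day 2 array had a ratio of 3.765. The part of these 2 measures in the differences was not tested. Of 38535 probe sets, 96 controls were left out. On the 8 arrays 16 was added, log2 taken and the log2 values quantile normalized. Probe sets with a mean above the 40th percentile over the 6 arrays (a signal of 9.11) were kept, 23063 in all.

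Late and day 2 arrays were contrasted in R 4.3.3 by limma 3.58.1, using lmFit and then eBayes with an intensity trend, and with Benjamini-Hochberg adjustment at 0.05. The code was tested on simulated data. With 2 and 4 arrays the precision is limited by their number; p-values measure the spread between the independent RNA samples within day 2 and within the pooled late group, which includes any difference between days 3 and 4, and the labels do not say whether their pools shared eggs. Python 3.11.15 with matplotlib 3.10.9 drew the figures.

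Names came from the platform's probe annotation, in which 27168 probe sets carried 1 symbol, 177 several and 11094 none. Of the probe sets with 1 symbol, 26853 had their gene in the reference gene table, and 0 had their symbol changed. The brightest probe set stood for a gene. The 17 pathway and 7 marker lists, the comparison and its members were chosen with earlier results of these data known. The naming rule asked for up to 15 called genes each way, up to 4 called members of each pathway list, the 3 brightest markers of each marker list and 5 genes each way between days 4 and 3. Few genes were called, so it named ITIH2, APOV1 and markers. The 20 widest gaps each way, up to 4 wide gaps per list, CCNG2, LOC769668 and other list members were chosen after their values were seen. Those 20 were taken from the 9734 genes without a placeholder symbol, such as a LOC number, each by its brightest probe set. Alternatives were other scalings, pseudocounts, filters, variance models, array sets and a replicate block.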

Additional observations from a re-analysis of the deposited data

Results flagged for a closer look

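Of 135 named genes and probe sets, 12 had one late array far from the other 3, the gap as a share of the range of the 4 late arrays exceeding Dixon's 95% critical value. Chance alone gives about 1 in 20. The second day 4 array stood apart in 6: AFP, where the gap was 0.863 of the range, APOA5 (0.844), EPB42 (0.932), GOT1 (0.87), MXRA8 (0.865) and RBM38 (0.939). In AFP, APOA5, EPB42, GOT1 and MXRA8 that array was the lowest of the late group, and in RBM38 the highest. The first day 4 array stood apart in ANKMY1 (0.865) and CIDEC (0.884), as the highest, and in TPX2 (0.841), as the lowest. The second day 3 array stood apart in the ribosomal protein genes RPL34 (0.835) and RPL36 (0.877). The first day 3 array was the lowest in SCARB2 (0.858).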

How the results depend on the processing

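The number of probe sets called higher was 4. It was 0 with a 1.5-fold minimum, a mean for each day, all 8 arrays in the fit, day 3 alone, day 4 alone, a median shift, no intensity trend, no scaling, or both first arrays of days 2 and 3 left out, and 1 with no filter. Samples were not treated as paired by replicate number in the main fit. Deviations of same-numbered arrays correlated at 0.38 between days 2 and 3, -0.05 between days 2 and 4 and -0.07 between days 3 and 4. A fit with a replicate block gave 0 calls. Leaving out 1 array gave 0 to 25 higher and 0 to 15 lower probe sets, and 0 to 5 between days 4 and 3. Probe sets with late arrays above numbered 2861, and 1844 without scaling, 5591 with day 3 alone, 5396 with day 4 alone, 6092 without both first arrays and 3363 to 7099 with 1 array left out. Those below numbered 2544, and 4907, 4594 and 5888 with the same arrays alone or left out and 2932 to 5800 with 1 array left out; fewer arrays make separation easier by construction.

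Of 3226 combinations of a named item and a setting, 3211 kept the sign. The sign turned in 15. APOB gave 0.036 without scaling, 0.054 with a median shift, 0.004 with day 3 alone and 0.4 with the mean of its probe sets. APOA1 gave -0.008 with array weights, -0.066 with day 3 alone, -0.023 with the mean of its probe sets and -0.04 without both first arrays, and -0.068 to 0.083 with 1 array left out. CLDN5 gave 0.065 with day 3 alone and FLT4 -0.444 with the mean of its probe sets. With 1 array left out SALL4 gave -0.017 to 0.553 and VIM -2.271 to 0.049, the sign turning without the first day 2 array. The cause was not tested. Adjusted p of the called probe sets over the alternatives ran from 0.017 to 0.88.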
